A study of Mus musculus with 10 samples.

Results

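Lymph node stroma and homing genes were examined in the mammary tissue of C57BL/6 mice fed a diet with 1 mg folic acid per kg (CFA) or 5 mg folic acid per kg (HFA). The 8 genes, *Ccl21a*, *Ccl19*, *Cxcl13*, *Madcam1*, *Glycam1*, *Chst4*, *Lta* and *Ltb*, were taken by name from the 46983 genes of the count lists, and all 8 were found there by their Ensembl identifiers. The mice were virgin females, the test diets were given for 4 weeks and were followed by 4 weeks of maintenance diet in both groups, and the tissue was collected on postnatal day 130. Each of the 5 CFA libraries (T1224, T1234, T1314, T1324 and T1334) and the 5 HFA libraries (T2214, T2224, T2234, T2314 and T2334) came from 1 mouse and from the intact thoracic fat pad of the right side. The tissue is therefore a mixture of adipose, epithelial, vascular, immune and other cells, and in such bulk RNA fewer cells of a type and less RNA per cell cannot be told apart.

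Lymph nodes are built on stromal cells that attract lymphocytes with chemokines. *Ccl21a* and *Ccl19* encode ligands of the receptor CCR7, which guides T cells and dendritic cells, and *Cxcl13* encodes the ligand of CXCR5, which guides B cells into follicles. Lymphocytes enter from the blood through high endothelial venules, whose cells carry sulfated glycoproteins. *Glycam1* encodes one such glycoprotein, *Chst4* a sulfotransferase that modifies their sugar chains, and *Madcam1* the adhesion molecule bound by the α4β7 integrin. *Lta* and *Ltb* encode the subunits of lymphotoxin, which lymphocytes present to the lymphotoxin β receptor on stroma, where it drives the non-canonical NF-κB pathway. *Glycam1* is also known as a product of the secretory epithelium of the mammary gland.

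The depth on genes was 7672199 to 14829291 reads a library. HTSeq set aside a further 28.8% to 33.9% of what it read because of multiple alignments, and these reads were assigned to no gene. A count of 0 in a library allowed up to 0.191 to 0.426 CPM, depending on the library (3 reads, counting error only). Levels are given as CPM, each count scaled to library size after TMM scaling. Intervals given below also cover counting error only, since the reads carry no molecular identifiers.

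*Ccl21a* and *Ccl19* lie on chromosome 4 among near copies, which limits what their counts can show. *Ccl21a* (ENSMUSG00000094686, GRCm38 chr4:42772860-42773993, minus strand, 4 exons, transcript of 870 bases) had 488 of its 796 windows of 75 bases, 61.3%, in transcripts of 4 other annotated genes. *Gm21541* held 488 of these windows, *Gm13304* 479, *Ccl21b* 178 and *Gm10591* 178. The aligned transcripts of these copies were identical to *Ccl21a* at 99.3% to 99.5% of their bases. Only T159A and C269T, counted from the first base of the *Ccl21a* transcript with the base of *Ccl21a* first, separated *Ccl21a* from all 4 copies, and both lie in coding exons. The stretches around these positions are printed to show how little separates the genes, with the differing base in capitals. The first covers transcript bases 143 to 189 in exon 2 (chr4:42773717-42773763, minus strand) and the second bases 264 to 299 in exon 3 (chr4:42773513-42773548, minus strand), and the other 3 copies have the letters of *Ccl21b* in both.
Ccl21a, exon 2: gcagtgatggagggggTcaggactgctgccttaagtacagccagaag
Ccl21b, exon 2: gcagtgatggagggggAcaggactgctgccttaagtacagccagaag
Ccl21a, exon 3: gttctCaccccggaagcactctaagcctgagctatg
Ccl21b, exon 3: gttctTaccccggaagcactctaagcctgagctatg

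*Ccl19* (ENSMUSG00000071005, chr4:42754525-42756577, minus strand) had 353 of its 699 windows, 50.5%, in transcripts of 4 other genes, with 353 in *Gm2564*, 211 in *Ccl19-ps3*, 120 in *Gm12407* and 74 in *Ccl19-ps1*. None of the windows of the other 6 genes occurred in an annotated transcript of another gene, so the limit on near copies applied to *Ccl21a* and *Ccl19*. None of the 8 genes shared an exon base with another annotated gene. *Cxcl13* (ENSMUSG00000023078) lies at chr5:95956951-95961068 on the plus strand with 4 exons, and *Madcam1* (ENSMUSG00000020310) at chr10:79664559-79668537 on the plus strand with 5 exons. *Glycam1* (ENSMUSG00000022491) lies at chr15:103562759-103565081 on the minus strand and *Chst4* (ENSMUSG00000035930) at chr8:110029153-110039740 on the minus strand. *Lta* (ENSMUSG00000024402, chr17:35203165-35205351, minus strand) and *Ltb* (ENSMUSG00000024399, chr17:35194439-35196320, plus strand) lie close together on chromosome 17.

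**Figure D1:**
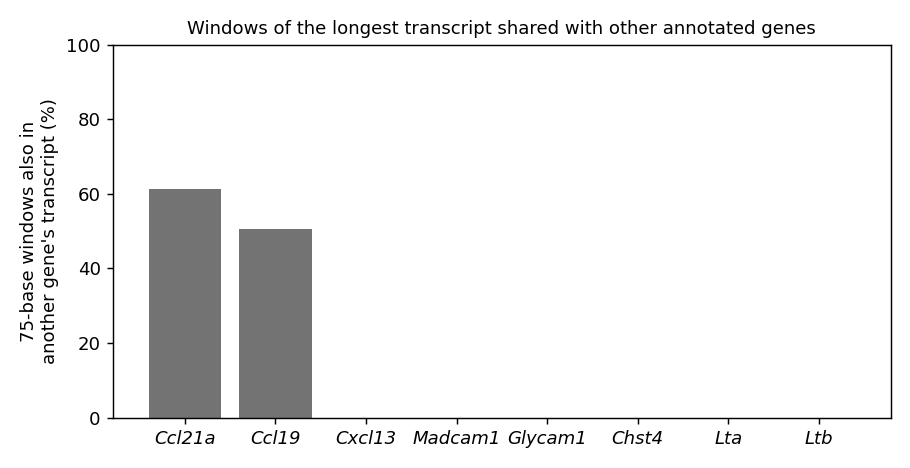
The bars give, for each gene, the percentage of 75-base windows of its longest transcript that also occur in an annotated transcript of another gene. *Ccl21a* stands at 61.3% and *Ccl19* at 50.5%, and the other 6 genes stand at 0.

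The stretches upstream of 4 of the genes are printed because these genes are known as targets or parts of lymphotoxin and NF-κB signalling or, for *Glycam1*, had the most reads. Capitals mark matches on either strand to the NF-κB consensus (κB), to the TATA box letters TATAAA, and to GGGAGNTTT, a pattern chosen after the *Cxcl13* sequence had been read. Sequences are from RefSeq (GRCm38.p6), 5′ to 3′ on the strand of the gene, and end at the base before the RefSeq start or before the first annotated exon. They cover chr5:95956689-95956938 (plus strand) for *Cxcl13*, chr10:79664309-79664558 (plus strand) for *Madcam1*, chr17:35194257-35194438 (plus strand) for *Ltb* and chr15:103565082-103565331 (minus strand) for *Glycam1*.
Cxcl13: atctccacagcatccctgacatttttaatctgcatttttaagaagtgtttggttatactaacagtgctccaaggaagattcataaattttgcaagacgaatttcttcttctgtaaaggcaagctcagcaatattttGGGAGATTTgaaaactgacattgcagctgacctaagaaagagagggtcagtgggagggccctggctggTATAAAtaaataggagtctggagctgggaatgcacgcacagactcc
Madcam1: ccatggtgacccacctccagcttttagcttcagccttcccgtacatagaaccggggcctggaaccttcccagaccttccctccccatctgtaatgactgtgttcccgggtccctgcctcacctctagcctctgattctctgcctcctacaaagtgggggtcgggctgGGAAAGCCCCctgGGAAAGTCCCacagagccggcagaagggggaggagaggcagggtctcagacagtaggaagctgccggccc
Ltb: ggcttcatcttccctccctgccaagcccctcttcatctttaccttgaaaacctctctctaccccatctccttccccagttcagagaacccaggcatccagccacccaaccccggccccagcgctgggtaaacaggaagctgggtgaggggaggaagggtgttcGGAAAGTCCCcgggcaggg
Glycam1: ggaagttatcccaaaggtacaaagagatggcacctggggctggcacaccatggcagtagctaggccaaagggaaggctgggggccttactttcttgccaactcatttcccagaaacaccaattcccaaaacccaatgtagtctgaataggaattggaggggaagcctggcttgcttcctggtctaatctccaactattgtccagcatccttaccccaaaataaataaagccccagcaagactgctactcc

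All 250 bases before the RefSeq start of each of the 8 genes were searched, also where fewer are printed. Of these bases, 212 lay in an annotated exon for *Ccl19*, 204 for *Chst4*, 68 for *Ltb* and 2 for *Ccl21a*. For *Ccl19* and *Chst4* the search thus covered mostly annotated exon. *Cxcl13* held TATAAA from position -46 to -41 and GGGAGNTTT from -114 to -106, and no match to the κB consensus. *Madcam1* held a pair of κB matches, from -83 to -74 and from -70 to -61, and *Ltb* held 1 from -87 to -78, all read on the opposite strand. *Lta* held TATAAA from -167 to -162. No match to the 3 patterns was found in the 250 bases of *Glycam1*, *Chst4*, *Ccl19* or *Ccl21a*. Of all 32851 promoters of the same length, 12.4% held TATAAA, 7.25% the κB consensus and 1.19% GGGAGNTTT. The patterns do not overlap one another in these windows.

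*Ccl21a* had 0 reads in all 10 libraries, and so had its 4 near copies. The 308 windows of its transcript that no other annotated transcript shares also drew no read. The annotated genes of a stretch chosen after the counts had been seen, from chr4:41893278 to chr4:42856771, which include *Ccl19*, *Ccl21a* and several of their copies, were 42 in number, of which 33 had 0 reads in all libraries and 9 had 99 reads together. These counts thus give no level of *Ccl21a*. Copies outside annotated transcripts were not examined, and the cause of the missing reads was not tested. *Ccl19* had 25 reads in all. In CFA it had 0 reads in T1224, 1 in T1234, 0 in T1314, 2 in T1324 and 4 in T1334, and in HFA 0 in T2214, 1 in T2224, 1 in T2234, 0 in T2314 and 16 in T2334. The count of T2334, 1.02 CPM, was the highest, and the counts of all other libraries were at 4 reads or fewer. Its annotated near copy *Gm12407*, a pseudogene, had 98 reads, of which 10 were in T1234, 23 in T1334 and 58 in T2334, against 2 or fewer in every other library. *Ccl19-ps1* had 4, 9 and 19 reads in the same 3 libraries and 0 in the other 7.

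**Figure D2:**
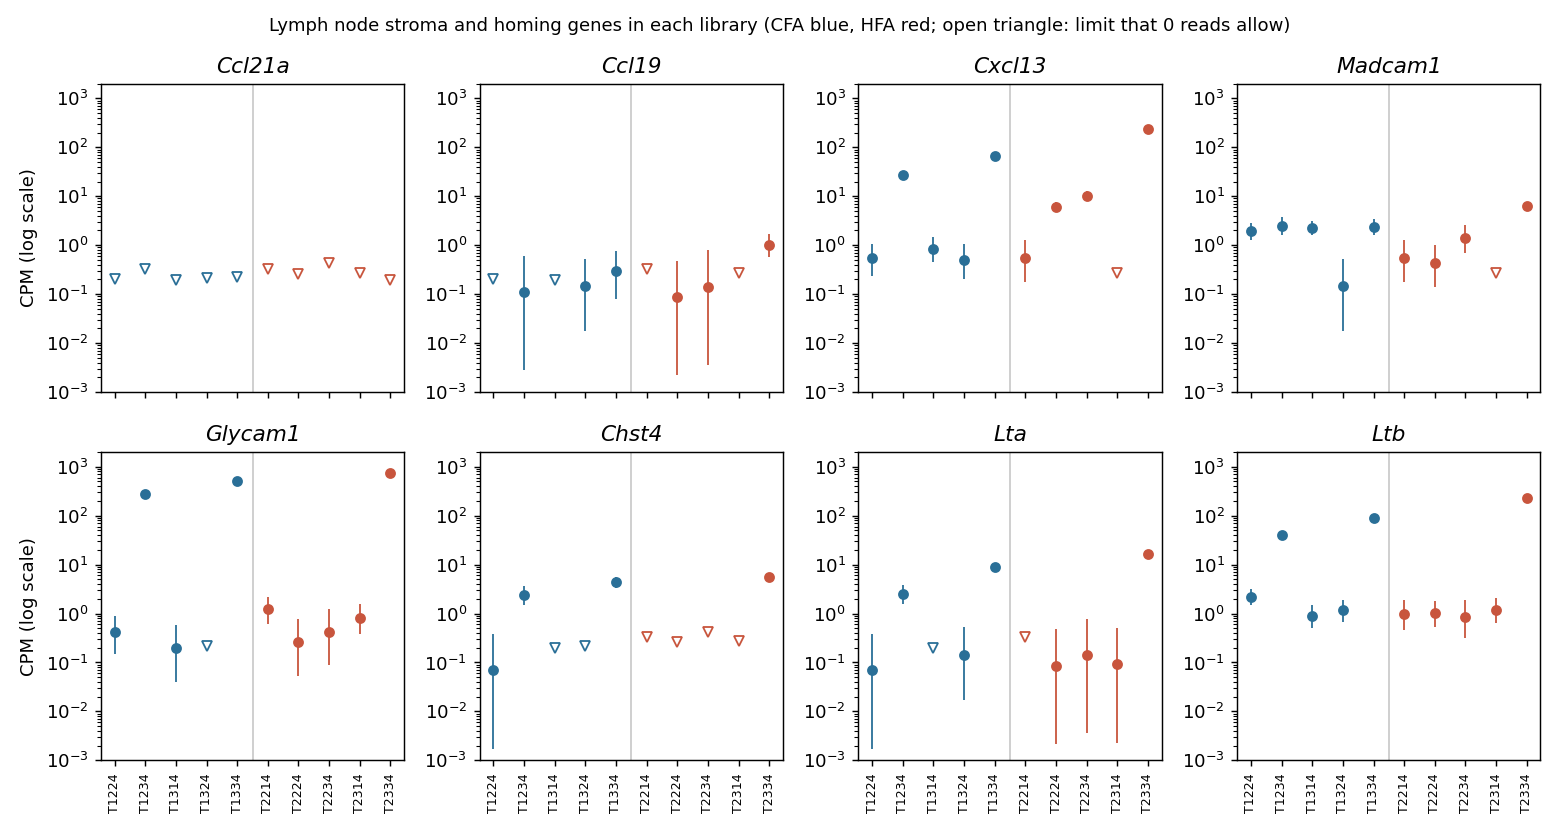
Each panel gives 1 gene on a log axis of CPM, with the 5 CFA libraries in blue and the 5 HFA libraries in red, bars for the 95% counting interval (exact Clopper-Pearson), and open triangles at the limit that 0 reads allow. *Glycam1*, *Chst4*, *Lta* and *Ltb* stand far above their other libraries in T1234, T1334 and T2334, *Cxcl13* also stands above 5 CPM in T2224 and T2234, and *Madcam1* is spread over most libraries.

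*Cxcl13* ranged most widely among the chemokine genes. In CFA it was at 0.549 CPM in T1224, 27.1 in T1234, 0.845 in T1314, 0.506 in T1324 and 65.4 in T1334. In HFA it was at 0.554 CPM in T2214, 6.04 in T2224, 10.4 in T2234, 0 in T2314 and 241 in T2334. The 3 highest libraries were T2334, T1334 and T1234, and they held 96.5% of its 5078 reads. T2224 and T2234, with 70 and 73 reads, stood between these 3 libraries and the rest, and in this *Cxcl13* differed from the venule and lymphotoxin genes, whose values in T2224 and T2234 were at most 1.42 CPM.

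Of the genes of high endothelial venules, *Glycam1* had the most reads, 21014 in all, of which 99.8% were in 3 libraries. In CFA it was at 0.412 CPM in T1224, 275 in T1234, 0.195 in T1314, 0 in T1324 and 519 in T1334. In HFA it was at 1.22 CPM in T2214, 0.259 in T2224, 0.426 in T2234, 0.823 in T2314 and 733 in T2334. No library lay between 1.22 and 275 CPM. *Chst4* followed the same libraries at a far lower level, with 2.41 CPM in T1234, 4.40 in T1334 and 5.54 in T2334, 1 read in T1224 and 0 reads in the other 6. *Madcam1* was at 1.92 CPM in T1224, 2.52 in T1234, 2.28 in T1314, 0.145 in T1324 and 2.39 in T1334 in CFA. In HFA it was at 0.554 CPM in T2214, 0.431 in T2224, 1.42 in T2234, 0 in T2314 and 6.24 in T2334. Its highest library was again T2334, but T1224 and T1314, where *Glycam1* was below 1 CPM, lay close to T1234 and T1334. The counting intervals of *Madcam1* in T1314 and T1234 overlapped, and its 3 highest libraries held 64.3% of its 238 reads.

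The lymphotoxin genes were high in the same libraries as *Glycam1*. *Lta* was at 0.0687 CPM in T1224, 2.52 in T1234, 0 in T1314, 0.145 in T1324 and 8.73 in T1334 in CFA. In HFA it was at 0 CPM in T2214, 0.0863 in T2224, 0.142 in T2234, 0.0914 in T2314 and 16.8 in T2334. *Ltb*, the membrane subunit, was at 2.2 CPM in T1224, 39.6 in T1234, 0.910 in T1314, 1.16 in T1324 and 91.2 in T1334 in CFA. In HFA it was at 0.996 CPM in T2214, 1.04 in T2224, 0.851 in T2234, 1.19 in T2314 and 228 in T2334. *Ltb* was the only one of the 8 genes with reads in all 10 libraries. Of the 7 genes with any read, 6 had T1234, T1334 and T2334 as their 3 highest libraries, the exception being *Ccl19*. For each gene with reads the ranges of CFA and HFA overlapped.

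Compared per length, as mean TPM over the 10 libraries with the SD between them, *Glycam1* had the highest level, 200.1 ± 345 (SD, n = 10), followed by *Cxcl13* at 84.2 ± 179 and *Ltb* at 67.1 ± 132. *Lta* was at 5.68 ± 11 TPM, *Madcam1* at 3.57 ± 3.58, *Chst4* at 1.52 ± 2.55 and *Ccl19* at 0.568 ± 0.977. Each SD was as large as its mean or larger. Within libraries *Ltb* was above *Lta* in 10 of 10 and *Madcam1* above *Chst4* in 8 of 10. *Glycam1* was above *Cxcl13* in 5 of 10 libraries, *Cxcl13* above *Ltb* in 4 and *Lta* above *Madcam1* in 5. *Chst4* was above *Ccl19* in 4, with 3 ties at 0. The order of these neighbours thus changed between libraries, many of them with values near 0. In T1234, T1334 and T2334 *Glycam1* was at 414, 640 and 942 TPM, above *Cxcl13* at 75.9, 149 and 574. *Cxcl13* was above *Ltb* in T2334 but not in T1234 or T1334. Lengths were unions of annotated exons, and that of *Glycam1*, 2133 bases over 4 annotated transcripts, sets its level.

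Markers of lymphocytes moved with the genes. All 6 B cell markers and all 7 T cell markers had T1234, T1334 and T2334 as their 3 highest libraries. The B cell list summed to 236 CPM in T1234, 593 in T1334 and 1854 in T2334, against 2.98 to 4.19 CPM in the other 7 libraries. The range of this sum was 3.61 to 593 CPM in CFA and 2.98 to 1854 CPM in HFA. The T cell list summed to 185 CPM in T1234, 413 in T1334 and 1021 in T2334, within ranges of 17.1 to 413 CPM in CFA and 8.59 to 1021 CPM in HFA. *Cr2* and *Fcer2a*, complement and IgE receptors of mature B cells and follicular dendritic cells, were together at 74.6, 222 and 583 CPM in these 3 libraries and at most 2.27 CPM elsewhere. Of the 4 genes listed for immature T cells of the thymus, *Rag1* and *Rag2* had 0 reads in all 10 libraries and *Ptcra* had 4 reads in all. *Dntt* had 87 reads, at 0.658 CPM in T1234, 1.57 in T1334 and 3.63 in T2334 and at most 0.137 CPM elsewhere, so that the sum of this list also had these 3 libraries as its highest, within 0 to 1.64 CPM in CFA and 0 to 3.63 CPM in HFA. The thymic epithelium list summed to at most 2.41 CPM, with its highest sum in T2234. The part of lymphocytes in the values of the 8 genes was not tested.

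Lists for endothelium and epithelium did not have the same 3 libraries as their highest. The lymphatic endothelium list, 5 genes, was at 40.8 CPM in T1234, 52.8 in T1334 and 111 in T2334, and its highest sum, 122 CPM, was in T2224. Its genes differed among themselves. *Lyve1* was highest in T2224 (87.4 CPM), and *Prox1* and *Flt4* in T2334 (15.8 and 21.1 CPM). *Reln* and *Mmrn1* were highest in T1314 (43.3 and 13.1 CPM), and *Reln* was lowest in T2334 (3.12 CPM). The blood endothelium list was at 393 to 531 CPM in CFA and 521 to 593 CPM in HFA. The milk protein list of the secretory epithelium, 6 genes, was at 67.7 CPM in T1234, 16.9 in T1334 and 9.67 in T2334, with its highest sum, 78.9 CPM, in T1314, and T1334 and T2334 were its lowest libraries. Most of this sum was *Csn3*, which encodes κ-casein, at 66.7 CPM in T1234, 13.7 in T1334 and 9.10 in T2334. *Csn1s1* and *Csn2*, with 217 and 241 reads in all, were highest in T1224 (6.80 and 8.52 CPM) and T1314 (5.66 and 5.53). T1334 came next for both (1.57 and 1.34 CPM), above T1234 (0.329 and 0.548) and T2334 (0.127 and 0.318). The low sum in T1334 thus followed *Csn3* and not these casein genes. *Wap*, *Csn1s2a* and *Lalba* had 1, 6 and 9 reads in all. *Glycam1* was highest in T2334, where *Csn3* and the sum were lowest. *Csn3* was at 62.7 CPM in T1224 and 67.6 in T1314, where *Glycam1* was below 1 CPM. Secretory epithelium as a source of *Glycam1* reads was not tested. The epithelium list ranged from 364 to 1745 CPM in CFA and from 226 to 1153 CPM in HFA, with its lowest sum in T2334. The myeloid and dendritic list was at 1380 CPM in T2334 and at 132 to 767 CPM elsewhere. T2334 also had the lowest skeletal muscle sum, 568 CPM against 5441 CPM or more in every other library.

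**Figure D3:**
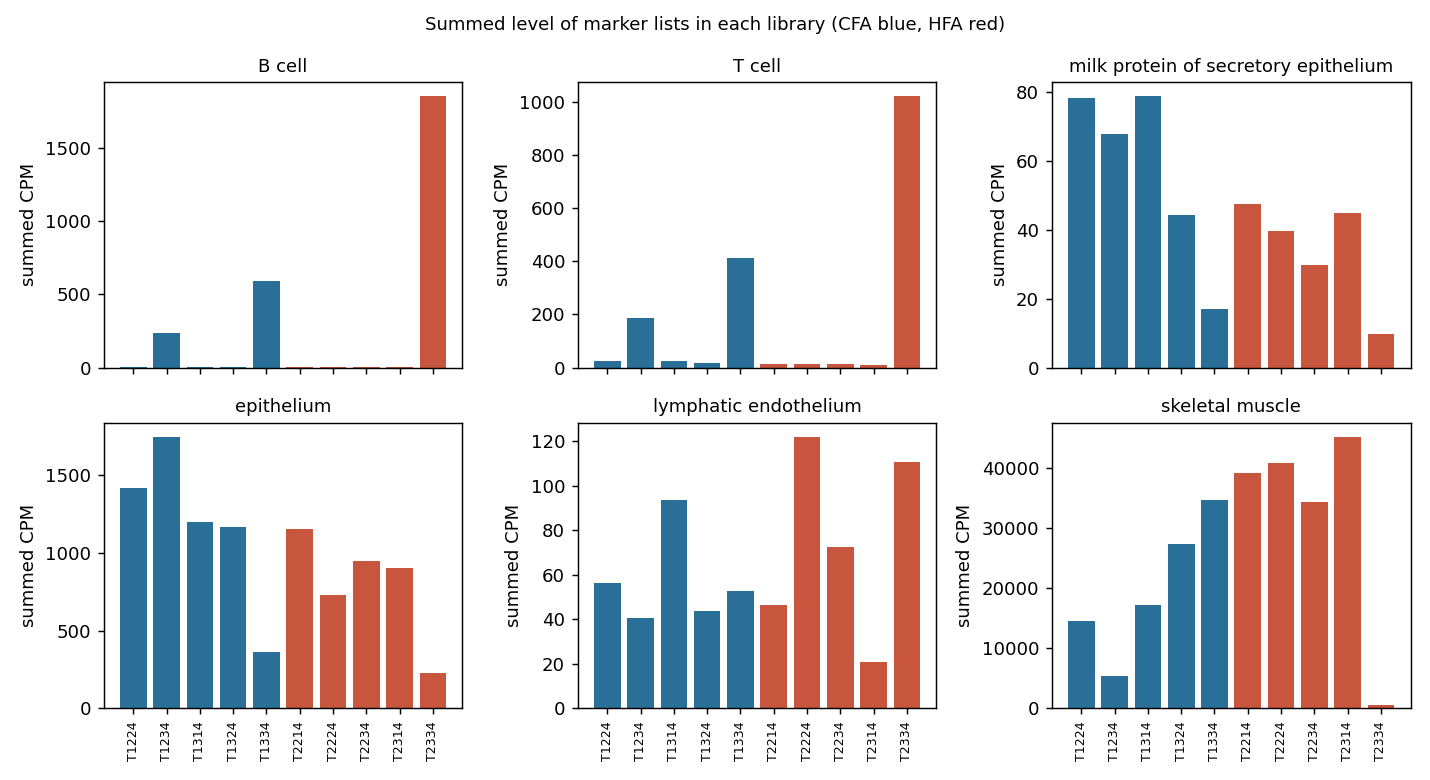
Bars give the summed CPM of 6 marker lists in each library, with CFA in blue and HFA in red, on linear axes that start at 0. The B and T cell sums stand out in T1234, T1334 and T2334, while the milk protein, epithelium, lymphatic endothelium and skeletal muscle sums do not have these 3 libraries as their highest.

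The receptor genes of lymphocytes *Ccr7* and *Cxcr5* had the same 3 libraries as their highest. *Ccr7*, the receptor of the products of *Ccl19* and *Ccl21a*, was at 28.0 CPM in T1234, 65.1 in T1334 and 200.2 in T2334, and at most 1.90 CPM elsewhere. *Cxcr5*, the receptor of the product of *Cxcl13*, was at 21.5, 42.4 and 147 CPM in these libraries and at most 1.70 CPM elsewhere. The integrin genes *Itga4* and *Itgb7*, whose products bind MAdCAM-1, also had these 3 libraries as their highest, with *Itga4* at 31.3, 75.6 and 211 CPM and *Itgb7* at 33.3, 87.2 and 191 CPM. Their levels in the other 7 libraries were 8.32 to 24.6 CPM and 3.11 to 11.5 CPM. The receptors of lymphotoxin and TNF on stroma behaved differently: *Ltbr* was at 33.3 CPM in T2334 and at 52.5 to 69.9 CPM in the other 9 libraries, and *Tnfrsf1a* at 91.3 CPM in T2334 and at 99.6 to 145 CPM in the others. *Tnf*, a ligand gene that lies beside *Lta* and *Ltb*, was at 3.07 CPM in T1234, 4.63 in T1334 and 9.87 in T2334, and at most 1.58 CPM elsewhere.

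The 3 libraries differed in how far each gene stood above T1234. From T1234 to T2334 the CPM of *Glycam1* was 2.67 times as high (95% counting interval 2.56 to 2.79), that of *Chst4* 2.29 times (1.42 to 3.85) and that of *Madcam1* 2.47 times (1.56 to 4.08). *Cxcl13* was 8.88 times as high (7.80 to 10.1), *Lta* 6.66 times (4.34 to 10.7) and *Ltb* 5.77 times (5.18 to 6.45). Between T1234 and T2334 the venule genes thus had smaller ratios than *Cxcl13* and the lymphotoxin genes. The intervals of *Glycam1*, *Chst4* and *Madcam1* did not overlap those of the other 3. The 6 B cell markers had ratios of 7.41 to 8.43 and the 7 T cell markers of 4.80 to 6.38. From T1234 to T1334 the ratios were 1.89 for *Glycam1* (1.81 to 1.98), 1.82 for *Chst4* (1.10 to 3.13), 3.46 for *Lta* (2.2 to 5.67), 2.41 for *Cxcl13* (2.09 to 2.79), 2.30 for *Ltb* (2.05 to 2.60) and 0.947 for *Madcam1* (0.537 to 1.69). The B cell markers had ratios of 2.33 to 2.90 and the T cell markers of 1.94 to 2.65. From T1334 to T2334 the grouping was not the same. There *Madcam1* had a ratio of 2.61 (1.74 to 4.02), *Ltb* of 2.51 (2.35 to 2.67) and *Lta* of 1.92 (1.54 to 2.41). *Glycam1* had 1.41 (1.37 to 1.45), *Chst4* 1.26 (0.893 to 1.78) and *Cxcl13* 3.68 (3.42 to 3.96). Each ratio compares 2 mice and says nothing of the diets.

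**Figure D4:**
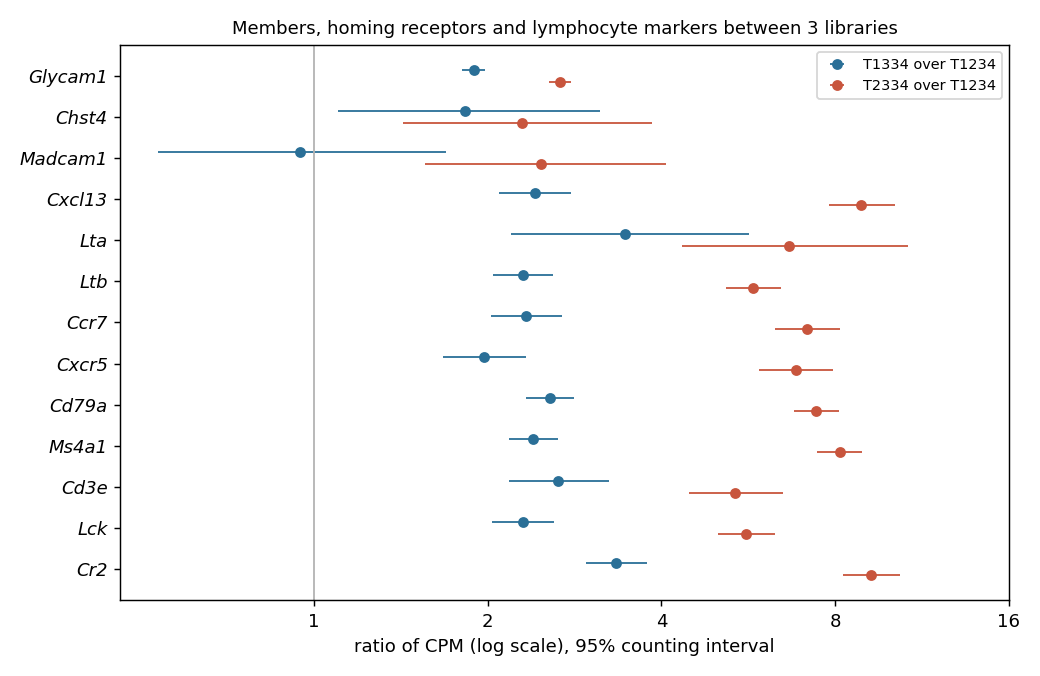
Points give the ratio of CPM in T1334 (blue) or T2334 (red) to that in T1234 on a log axis, with bars for the 95% counting interval, for 6 of the genes, 2 receptors and 5 lymphocyte markers. For T2334 the ratios of *Glycam1*, *Chst4* and *Madcam1* lie between 2.29 and 2.67, and those of all other genes drawn lie above 5.

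The genes with the most similar pattern over the 10 libraries were those with the smallest root mean square difference of mean-centred log2 CPM. They were sought among 18142 genes with at least 30 reads, as a description with no test. The 8 genes themselves were left out of this search, so none of them could appear as a neighbour of another. For *Ltb* these were *Nsg2* (0.30 log2 units), *Cd8b1* (0.40), a coreceptor gene of T cells, and *Tnfrsf13c* (0.41), which encodes the BAFF receptor of B cells. For *Lta* they were *Jakmip1* (0.28), *A630023P12Rik* (0.28) and *Cxcr5* (0.28). For *Glycam1* they included *Fcmr* (1.14) and *Cd79a* (1.24), both genes of B cells, and for *Cxcl13* they included *Bank1* (1.10) and *A430078G23Rik* (1.26). For *Chst4* they were *Tspan10* (0.24), *Ccl5* (0.29) and *Crisp3* (0.30). For *Madcam1* they were *Dpp10* (0.64), *Gpr176* (0.65) and *Egr3* (0.70). The root mean square of each gene's own log2 values about its mean was 4.57 for *Glycam1*, 3.24 for *Cxcl13*, 2.90 for *Ltb*, 2.38 for *Lta*, 2.10 for *Chst4* and 1.54 for *Madcam1*. The points share libraries, so one library that stands apart acts on all of them.

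The diet comparison asked whether these genes differed 4 weeks after the higher folic acid intake. Of 15610 genes tested with edgeR's quasi-likelihood test, 0.00% were called at an adjusted p under 0.05, and 7.36% had an unadjusted p under 0.05 (1149 genes). Only 3 of the 8 genes passed the filter on low counts, namely *Cxcl13*, *Madcam1* and *Ltb*, 0 of these were called, and 0 had an unadjusted p under 0.05. The filter asks for a minimum level in at least 5 libraries. *Glycam1*, with 99.8% of its 21014 reads in 3 libraries, therefore did not pass. In CFA *Cxcl13* was at 18.9 ± 28.4 CPM, and in HFA at 51.5 ± 106 CPM (SD, n = 5 each). The log2 fold change was 1.46 (SE 1.81, edgeR adjusted p = 0.863). In CFA *Ltb* was at 27.0 ± 39.5 CPM, and in HFA at 46.5 ± 102 CPM, which gave a log2 fold change of 0.79 (SE 1.79, edgeR adjusted p = 0.929). For *Madcam1* the means were 1.85 ± 0.979 CPM (CFA) and 1.73 ± 2.57 CPM (HFA), with a log2 fold change of -0.04 (SE 0.98, edgeR adjusted p = 0.995). These differences were smaller than the spread between mice, and a p that misses the threshold does not show that the diets gave equal levels.

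Without the filter, 27582 genes were tested and 5.49% had an unadjusted p under 0.05, but 0 of the 7 genes with reads did. The log2 fold change was 1.17 for *Ccl19* (SE 1.16), -0.24 for *Glycam1* (SE 2.24), -0.33 for *Chst4* (SE 1.62) and 0.50 for *Lta* (SE 1.63). The median of the 7 genes was 0.50, against 0.01 for all genes tested without the filter. For *Cxcl13*, *Ltb*, *Lta* and *Ccl19* the sign turned without T2334, to a log2 fold change of -2.22, -4.74, -4.73 and -0.94. *Madcam1* and *Glycam1*, already below 0 with all libraries, were at -1.76 and -7.89 without it. Leaving out T2334 left 0 of the 8 genes called, with adjusted p of 0.389 for *Cxcl13* and 0.114 for *Ltb* in edgeR. Without T1334 the log2 fold change was 2.87 for *Cxcl13*, 2.12 for *Ltb* and 1.09 for *Glycam1*.

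**Figure D5:**
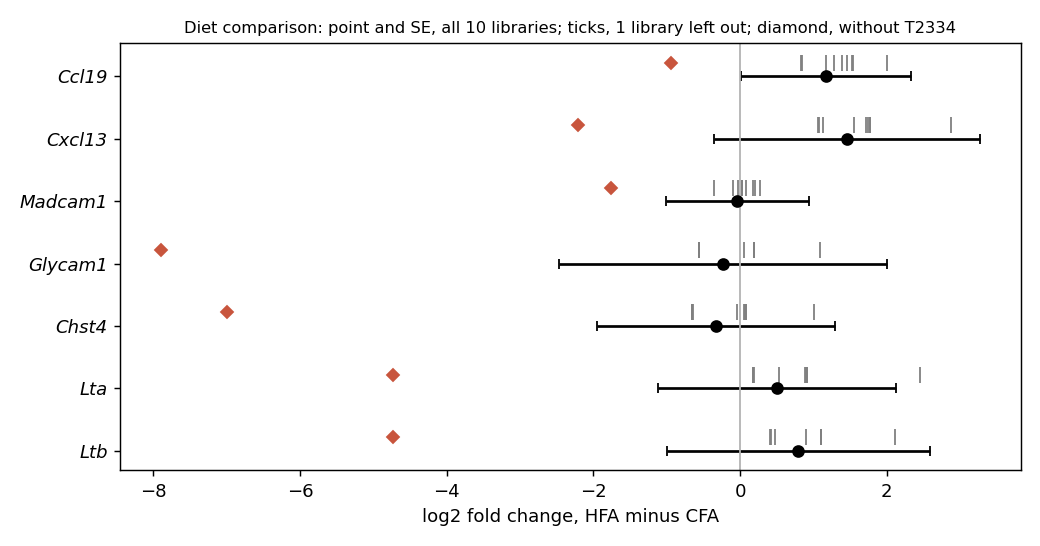
Black points give the log2 fold change of HFA minus CFA with its SE over all 10 libraries (*Cxcl13*, *Madcam1* and *Ltb* with the filter, the others without), grey ticks the values with 1 library left out, and red diamonds the values without T2334. All 7 diamonds lie below 0, and the SE bars of 6 of the 7 genes, all but *Ccl19*, span 0.

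The spread between mice was large for these genes. The tagwise biological coefficient of variation was 1.82 for *Cxcl13*, 1.69 for *Ltb* and 1.08 for *Madcam1*, against a median of 0.294 over the 15610 genes. *Cxcl13* ranked 6 from the highest, *Ltb* 15 and *Madcam1* 209.

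A list of 44 other genes of the same processes, of which 43 were in the count lists and 40 were tested, gave 1 gene with an unadjusted p under 0.05 and 0 called. The gene was *Enpp2*, which encodes the lysophospholipid-producing enzyme autotaxin of venules and adipocytes, at 169 ± 23.6 CPM in CFA and 238 ± 74.2 CPM in HFA (SD, n = 5 each). Its log2 fold change was 0.49 (SE 0.21, edgeR adjusted p = 0.661), and its CPM of 356 in T2334 was the highest. The median log2 fold change of the list was 0.03, with 21 genes above and 19 below 0, against 0.06 for all tested genes. All 8 homing receptor genes of lymphocytes had values above 0, from 0.44 for *Cxcr4* to 1.19 for *Cxcr5*, and 0 of the 8 were called. Without T2334 all 8 were below 0, from -4.11 for *Ccr7* to -0.14 for *S1pr1*, and 0 of them were called in the same edgeR test. Among the lymphotoxin and TNF family genes *Tnfsf11*, which encodes RANKL, had the largest difference, 12.7 ± 9.93 CPM in CFA and 2.70 ± 5.89 CPM in HFA (log2 fold change -2.16, SE 1.49, edgeR adjusted p = 0.761). It was at 17.7 CPM in T1224, 23.7 in T1234, 17.5 in T1334 and 13.2 in T2334, so that T1224 was high for *Tnfsf11* while low for *Ltb*. By mean TPM the most abundant genes of the roles were *Cxcl12* (85.4), *Pdpn* (30.1) and *Icam1* (24.3) among stromal genes, *Enpp2* (95.8), *St3gal6* (63.5) and *Podxl* (60.3) among venule genes, *Tnfrsf1a* (128), *Ltbr* (69.7) and *Nfkb2* (33.5) in lymphotoxin signalling, and *S1pr1* (87.4), *Cxcr4* (43.7) and *Ccr7* (42.0) among homing receptors.

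The second digit of the sample titles is 2 in T1224, T1234, T2214, T2224 and T2234 and 3 in the other 5 libraries, and its meaning is not given in the sources used here. The diet effect was compared between these digits with an interaction term, for which 8.46% of the 15610 genes had an unadjusted p under 0.05 and 0 were called. Among the 3 tested genes the difference of the diet effect (digit 3 minus digit 2) was 6.29 for *Ltb* (SE 3.19), 3.72 for *Cxcl13* (SE 3.46) and 2.50 for *Madcam1* (SE 1.96), with edgeR adjusted p of 0.568, 0.636 and 0.60. The highest library is a CFA library, T1234, among the 5 with digit 2 for *Glycam1*, *Chst4*, *Lta*, *Ltb* and *Cxcl13*, and the HFA library T2334 among the 5 with digit 3.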

How the data were processed

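The authors aligned 75 bp paired reads of mammary RNA to GRCm38 with TopHat2 2.0.14 and Bowtie2 2.2.5, and HTSeq 0.6.1 counted uniquely aligned reads on Ensembl 83 genes. The deposited values are whole-number read counts of 46983 genes per library, without normalization. The library kit does not mark strand. The authors' model also held cage, which the labels do not give, so it had no term here.

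Symbols and exon lengths came from GENCODE M21, which matched 46488 genes. Counts were analysed in R 4.3.3 with edgeR 4.0.16 (filterByExpr with its default minimum of 10, TMM, quasi-likelihood test, Benjamini-Hochberg adjustment, threshold 0.05), with limma 3.58.1 and DESeq2 1.42.0 as alternatives. These fits were also run on simulated data, with the same dispersion for every gene and no library that stands apart. That setting differs from the spread of the 8 genes, so the run cannot show how the fits perform for them. Each SE is the fold change (log2) over the square root of F. Likeness used log2 CPM with a prior count of 2. Groups are the diets of the labels. Genes named were the 8 genes, their near copies, receptors and partners, the 3 most similar genes of each, and in each role list the 3 with the highest mean TPM and those with an unadjusted p under 0.05; *Tnfsf11*, *Csn3*, the ends of the homing receptor range and the genes of marker lists were chosen after values were seen. The genes and lists were chosen with earlier results of these data known, and some list genes are not reported here.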

Additional observations from a re-analysis of the deposited data

Results flagged for a closer look

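In 9 of 14 groups of 5 libraries (7 genes in each diet), 1 library lay outside the range that Dixon's 95% critical value allows. Chance puts about 1 in 20 groups there only if values are normally distributed. The CPM used here were strongly skewed, with many values at or near 0, so that rate cannot be applied to them. The groups are not independent, since T2334 was the outlying library in all 7 groups of HFA. There its CPM was 1.02 for *Ccl19*, 241 for *Cxcl13*, 6.24 for *Madcam1*, 733 for *Glycam1*, 5.54 for *Chst4*, 16.8 for *Lta* and 228 for *Ltb*, each far above the other HFA libraries. In CFA, *Lta* in T1334 was outlying at 8.73 CPM, and *Madcam1* in T1324 was outlying as the lowest, at 0.145 CPM. Where 2 CFA libraries were high together, as T1234 and T1334 were for *Glycam1* and *Ltb*, neither was outlying by this measure.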

How the results depend on the processing

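Of the 7 genes with reads, 0 were called under the alternative tests, scalings, filter and covariates run or with any 1 library left out, except that DESeq2 gave no adjusted p for *Cxcl13*. *Ccl21a* could not be tested. Called genes of the whole table numbered 0 by the quasi-likelihood test, 33 by the likelihood ratio test, 60 by DESeq2 and 1037 by limma voom with quality weights, with 0 to 6 when 1 library was left out (6 without T2334). The genes with an unadjusted p under 0.05 numbered 4702 by voom with quality weights, and 553 (without T1314) to 4059 (without T2334) with 1 library left out. Of the list of 44, the genes with an unadjusted p under 0.05 numbered 0 without the filter, against 1514 of 27582 over all genes. By limma voom they numbered 0 (1110 of 15610 over all genes), and 12 with quality weights (4702 of 15610). With a term for the second title digit they numbered 2 (1553 of 15610). With 1 library left out they numbered 0 to 16 (16 without T2334, against 4059 of 15735). Of the 44, 40 passed the filter with all libraries, and no count is read as a result about the list.

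With 1 library left out the log2 fold change ran from -2.22 to 2.87 for *Cxcl13*, -1.76 to 0.27 for *Madcam1*, -4.74 to 2.12 for *Ltb*, -0.94 to 2.0 for *Ccl19*, -7.89 to 1.09 for *Glycam1*, -7.00 to 1.01 for *Chst4* and -4.73 to 2.45 for *Lta*, and their median from -4.73 to 2.0. The lowest value was without T2334 for each gene, which for *Chst4* leaves 0 reads in HFA and gives no bound. The sign also turned for *Ltb* by limma voom (-0.43), with quality weights (-1.26), with that title digit fitted (-0.90) and with the replicate block (-0.85). It turned for *Lta* under the same fits (-0.15, -0.98, -0.34 and -0.39) and for *Glycam1* by limma voom (0.39). The cause was not tested.

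The correlations of deviations from the group means for the 4 shared title numbers were 0.332, -0.333, 0.130 and 0.422. Unmatched libraries were not set beside them, so these values cannot decide whether title numbers pair the libraries. The replicate block called 0 genes, as did the main fit. With a prior count of 0.5, 9 of the 18 most similar genes were shared. Without the filter the ranks by dispersion were 585 for *Cxcl13*, 704 for *Ltb* and 1834 for *Madcam1*. Lengths of the longest transcript left each mean TPM within its SD. The 25 reads of *Ccl19* and the absence of reads on *Ccl21a* limit what can be said of either.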
